A study of Mus musculus with 8 samples.

Results

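Kinases of chromosome segregation were compared between wild type and VRK1-deficient mouse testes at postnatal day 8. The set was chosen by gene name and held Aurka, Aurkb, Aurkc, Plk1, Plk2, Plk4, Bub1, Bub1b, Ttk and Gsg2 (haspin). These 10 genes had 13 of the 41174 probes that were not controls. RNA of male testes from 4 wild type and 4 VRK1-deficient mice was labeled with the dye Cy3 and measured on 1-color Agilent Whole Genome Mouse arrays, 1 for each biological replicate. VRK1 is a nuclear protein kinase of the vaccinia-related family. The VRK1-deficient mice descended from a gene-trapped ES cell line that carried a β-geo reporter in an intron of Vrk1, and heterozygotes had been backcrossed with C57BL/6 mice. The allele is not limited to 1 cell type, and RNA came from total testicular cells, so germ and somatic cells were measured together.

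Each chromosome must be attached to the spindle, and sister chromatids are released only when all chromosomes are attached. Aurora kinases correct wrong attachments and build the spindle, haspin phosphorylates histone H3 at the centromere to recruit the Aurora B complex, polo-like kinases act at centrosomes and kinetochores, and BUB1, BUBR1 and TTK form the checkpoint that holds anaphase back. Aurora C is known as the Aurora of germ cells, where it acts in the meiotic divisions, and haspin transcripts are abundant in germ cells of the testis.

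The promoter windows of the kinase genes are shown because Aurkc and Gsg2 were both called as lower and the other kinase genes were not. RefSeq windows of 300 bases (build GRCm38.p6, 250 bases before the start of the gene and 50 after) were matched for 9 of the 10 genes. Windows were searched on both strands for TTTGAA, which reads TTCAAA on the other strand, and for TTCGAA, which reads the same on both. These letters are forms of the cell cycle genes homology region found in many genes transcribed in G2 and M phase. The 2 motifs do not overlap each other in these windows. The windows below are written on the strand of the gene, 5′ to 3′, with a matched motif in capitals.
Aurkc, chr7:6995135-6995434, plus strand: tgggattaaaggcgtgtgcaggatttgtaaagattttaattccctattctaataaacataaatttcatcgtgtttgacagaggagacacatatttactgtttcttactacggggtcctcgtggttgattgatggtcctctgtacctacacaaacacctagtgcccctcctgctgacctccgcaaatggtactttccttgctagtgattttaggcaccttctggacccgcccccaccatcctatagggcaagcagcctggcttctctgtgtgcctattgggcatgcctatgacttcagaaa
Haspin (Gsg2), chr11:73138245-73138544, minus strand: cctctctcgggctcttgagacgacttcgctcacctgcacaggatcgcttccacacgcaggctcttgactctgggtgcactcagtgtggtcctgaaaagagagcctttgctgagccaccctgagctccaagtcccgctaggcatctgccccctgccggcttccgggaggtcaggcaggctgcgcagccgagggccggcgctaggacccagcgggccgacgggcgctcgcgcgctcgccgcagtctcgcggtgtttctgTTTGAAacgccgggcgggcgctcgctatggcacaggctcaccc
Aurka, chr2:172370521-172370820, minus strand: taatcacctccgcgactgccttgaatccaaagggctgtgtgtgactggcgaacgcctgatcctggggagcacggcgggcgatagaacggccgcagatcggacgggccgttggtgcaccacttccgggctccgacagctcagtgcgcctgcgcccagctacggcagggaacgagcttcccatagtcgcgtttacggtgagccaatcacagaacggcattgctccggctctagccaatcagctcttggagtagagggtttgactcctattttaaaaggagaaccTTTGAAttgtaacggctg
Plk1, chr7:122159185-122159484, plus strand: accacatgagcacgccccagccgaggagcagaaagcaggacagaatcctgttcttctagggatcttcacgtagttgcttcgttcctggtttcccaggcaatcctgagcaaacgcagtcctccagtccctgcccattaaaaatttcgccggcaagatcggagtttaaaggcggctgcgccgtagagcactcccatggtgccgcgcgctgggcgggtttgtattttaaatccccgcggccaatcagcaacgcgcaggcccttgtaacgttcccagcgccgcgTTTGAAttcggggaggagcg
TTTGAA stood once in the windows of Aurka (first base at position 283 of 300), Plk1 (281), Bub1b (291), Ttk (258, on the other strand) and Gsg2 (258). The gene starts at position 251 of its window, so these 5 matches lay just after the start. TTCGAA stood in the windows of Bub1 (position 265) and Bub1b (position 63). Neither motif was in the windows of Aurkc, Plk2 and Plk4. One or the other was thus in 6 of the 9 windows, against 19.2% of the 32851 windows of all genes, and TTTGAA alone was in 17.9% of these. Of the genes that fell, Aurkc had no match and Gsg2 had 1.

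The signal of each probe is given as the log2 ratio of its processed intensity to the array's 75th percentile, so 0 is a signal equal to that percentile and a difference of 1 is 2-fold. This percentile was 642 to 848 for wild type and 548 to 745 for VRK1-deficient arrays, and 63.6% to 69.5% of spots were well above background. Wild type replicate 1 stood apart, since its correlation across 26958 probes was 0.987 to 0.990 with the VRK1-deficient arrays and 0.970 to 0.986 with the other wild type arrays. Calls for the kinase genes, the other pathway genes named and the marker lists are given with and without it. Replicates 1 and 2 of both genotypes were on slide 1 and replicates 3 and 4 on slide 2. Wild type samples took positions 1 and 2 of each slide and VRK1-deficient samples positions 3 and 4, so array position and genotype cannot be told apart. Vrk1 itself (probe A_51_P102339) averaged 0.16 ± 0.38 (SD, n = 4) on wild type arrays against -3.85 ± 0.27 (SD, n = 4) on VRK1-deficient ones, with no overlap, and 6.23% of its signal was left (limma adjusted p = 0.000135). The place of this probe relative to the trap was not determined.

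Of the 10 kinase genes, Aurkc and Gsg2 fell in VRK1-deficient testes and none rose, at a limma adjusted p under 0.05. Of all 17947 tested genes, each read by its brightest probe, 4.08% were called, 2.18% as lower and 1.89% as higher. The same 2 kinase genes were those whose wild type and VRK1-deficient arrays did not overlap, which held in that direction for 7.58% of all tested genes, while 10.1% had all VRK1-deficient arrays higher. The log2 change was below 0 for 8 of the 10 kinase genes and for 45.1% of all tested genes. The median log2 change was -0.24 over the kinase genes and 0.04 over all tested genes. The kinase median depended on the arrays used, and was -0.03 on slide 1, -0.45 on slide 2, -0.40 with wild type replicate 1 left out and -0.15 with wild type replicate 3 left out. All 10 genes had a probe well above background on all 8 arrays.

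**Figure D1:**
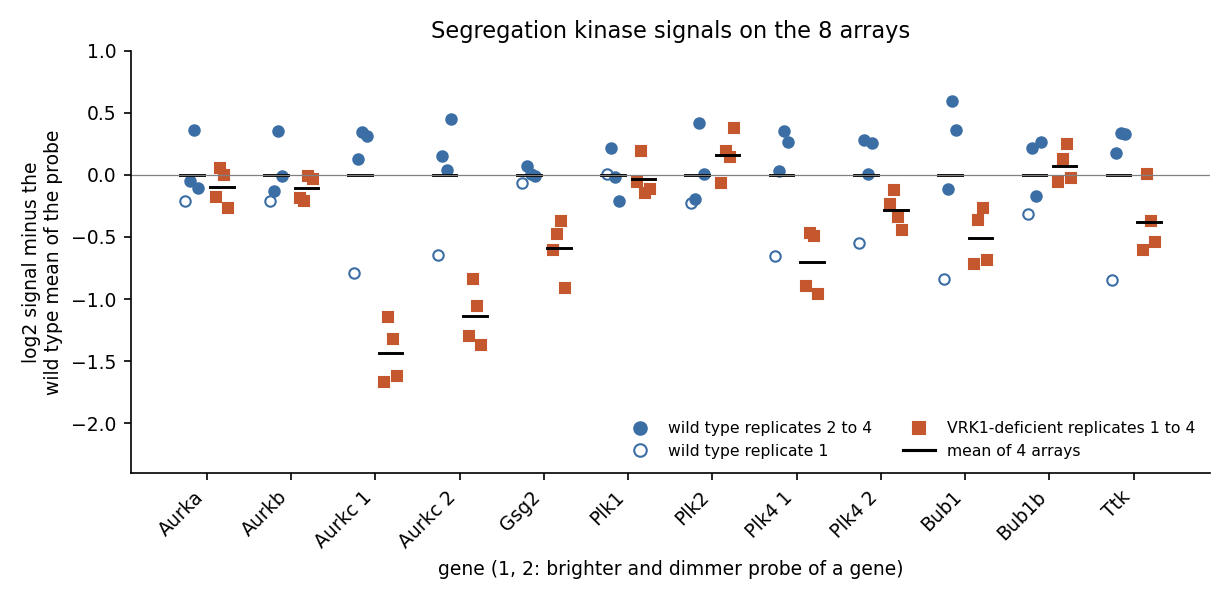
Log2 signal of the 12 tested kinase probes on each array (vertical axis, minus the wild type mean of the probe), by gene (horizontal axis), with circles for the 4 wild type arrays (open for replicate 1), squares for the 4 VRK1-deficient arrays and black bars for group means. The squares lie below every circle for both Aurkc probes and for Gsg2, and the open circle of replicate 1 lies lowest among the wild type arrays for 9 of the 10 genes, all but Plk1.

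Of the 3 Auroras, only Aurkc was called. Aurkc, the Aurora of germ cells, has 2 probes (NM_020572). Its brighter probe A_51_P512293 lies on chromosome 7 from 6559396 to 6559455 (build mm7, as in the array files). Its log2 signal was -0.96, -0.05, 0.17 and 0.14 in wild type replicates 1 to 4, and -1.84, -1.32, -1.50 and -1.80 in VRK1-deficient replicates 1 to 4. All VRK1-deficient arrays were below all wild type arrays, and wild type replicate 1 lay between the other wild type arrays and the VRK1-deficient arrays. The log2 change was -1.44 (standard error 0.26, 95% interval -2.01 to -0.86, limma adjusted p = 0.0413), which leaves 36.9% of the wild type signal. Slide 1 alone gave -1.08 and slide 2 alone -1.80. With wild type replicate 1 left out it became -1.70 (limma adjusted p = 0.00322). When any of the other 7 arrays was left out, the log2 change was between -1.54 and -1.32 and was no longer called (limma adjusted p = 0.0641 to 0.143).

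The dimmer Aurkc probe A_52_P465718 spans 866 bases of chromosome 7, from 6555643 to 6556508 (mm7), with its 60 bases, so its match is interrupted. Its sequence is shown because it reads the same transcript at another place and fell as well.
Aurkc probe A_52_P465718: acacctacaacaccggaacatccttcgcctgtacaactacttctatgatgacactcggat
Its log2 signal was -2.98, -2.18, -2.30 and -1.88 in wild type and -3.63, -3.17, -3.39 and -3.71 in VRK1-deficient replicates 1 to 4. Again no VRK1-deficient array reached a wild type array, and replicate 1 was the lowest wild type array. The log2 change of -1.14 had a standard error of 0.23 (limma adjusted p = 0.0471), with -0.82 on slide 1 and -1.46 on slide 2 alone. The call of this probe was lost with slide as a block (adjusted p = 0.0508). In bulk testis, fewer cells that express a gene and less RNA of it per cell cannot be told apart.

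Aurka, which drives centrosome maturation and spindle assembly, had a log2 signal of 3.41, 3.57, 3.98 and 3.51 in wild type and 3.44, 3.67, 3.61 and 3.35 in VRK1-deficient replicates. The groups overlapped, and the log2 change was -0.10 (95% interval -0.43 to 0.24, limma adjusted p = 0.686). Aurkb, the catalytic subunit of the chromosomal passenger complex, had -1.72, -1.64, -1.15 and -1.51 in wild type and -1.69, -1.71, -1.52 and -1.53 in VRK1-deficient replicates. Its groups overlapped too, with a log2 change of -0.11 (95% interval -0.43 to 0.21, limma adjusted p = 0.640). These intervals hold falls of up to 0.43, so a fall of that size was not excluded with 4 arrays a group.

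The changes of Aurkc and of the other Auroras were set side by side within each array, as a description with no test, since these genes were picked after their values were seen. The signal of Aurkc minus that of Aurka was -4.37 to -3.38 on wild type and -5.28 to -4.99 on VRK1-deficient arrays, so the ranges did not overlap and the group means differed by -1.34. For Aurkc minus Aurkb they were 0.75 to 1.65 and -0.26 to 0.40, a difference of -1.33. Within slide 1 the differences were -1.14 and -1.05, and within slide 2 -1.54 and -1.61. With any 1 array left out they stayed at -1.53 to -1.20 for Aurka and -1.52 to -1.22 for Aurkb.

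Gsg2 encodes haspin, the kinase whose mark on histone H3 brings Aurora B, and in germ cells Aurora C, to centromeres. Its probe A_51_P151586 (NM_010353) lies on chromosome 11 from 73217501 to 73217560 (mm7). Its log2 signal was -0.43, -0.29, -0.35 and -0.37 in wild type and -0.97, -0.84, -0.73 and -1.27 in VRK1-deficient replicates. The wild type arrays were close to each other, with replicate 1 among them, and all VRK1-deficient arrays were lower. Its log2 change of -0.59 (standard error 0.13, 95% interval -0.89 to -0.29, limma adjusted p = 0.0493) leaves 66.4% of the wild type signal.

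Slide 1 alone gave -0.54 for Gsg2 and slide 2 alone -0.64. The fall was at the edge of the threshold, and the call was lost with slide as a block (limma adjusted p = 0.0545) and with quantile normalization (limma adjusted p = 0.0525). Without wild type replicate 1 the log2 change was -0.61 (limma adjusted p = 0.0165). When any of the other 7 arrays was left out it was between -0.66 and -0.48 and was not called (limma adjusted p = 0.0735 to 0.151). Set against Aurka and Aurkb in the same way, with no test, the change of Gsg2 was lower by 0.49 than that of Aurka and by 0.48 than that of Aurkb. The signal of Gsg2 minus that of Aurka was -4.33 to -3.84 on wild type and -4.62 to -4.34 on VRK1-deficient arrays. For Gsg2 minus Aurkb the ranges were 0.81 to 1.35 and 0.27 to 0.88, and they overlapped. With any 1 array left out the differences were -0.61 to -0.44 for Aurka and -0.60 to -0.35 for Aurkb.

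**Figure D2:**
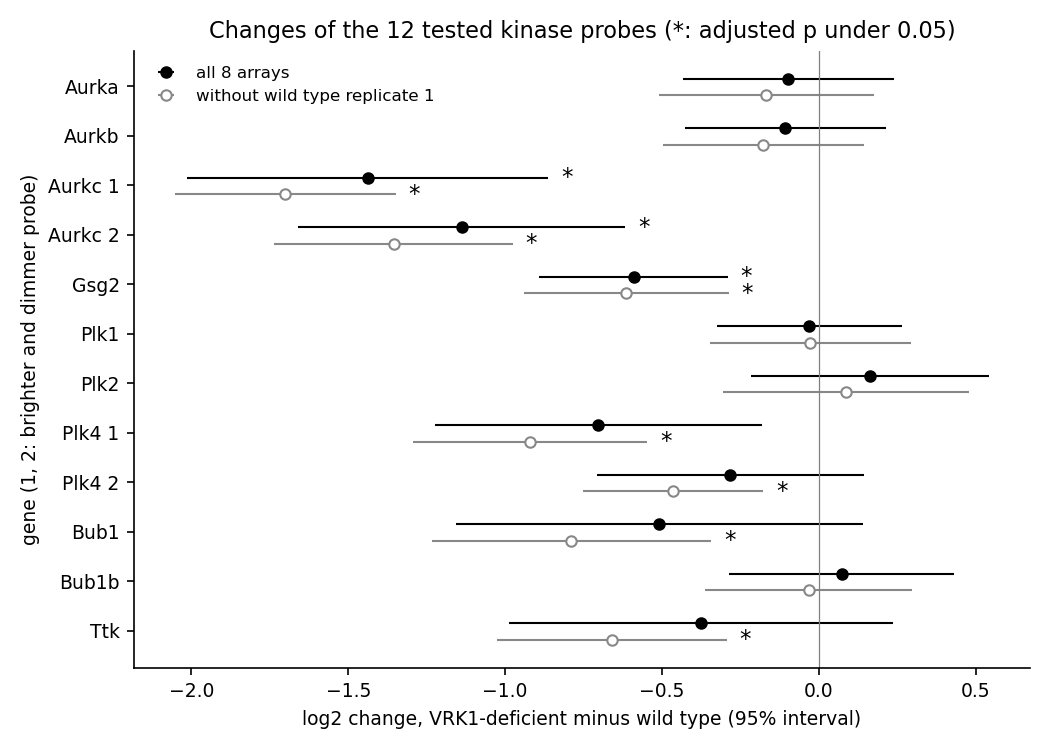
Log2 change between VRK1-deficient and wild type testes (horizontal axis) of the 12 tested kinase probes (vertical axis), with 95% intervals from limma, for all 8 arrays (filled) and without wild type replicate 1 (open). A star marks an adjusted p under 0.05, which 3 probes of Aurkc and Gsg2 have with all arrays and which both Plk4 probes, Bub1 and Ttk gain without replicate 1.

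Of the polo-like kinases, none was called with all arrays. Plk1, the polo kinase of mitotic entry, spindle poles and kinetochores, had a log2 signal of 3.32, 3.52, 3.29 and 3.10 in wild type and 3.25, 3.50, 3.16 and 3.19 in VRK1-deficient replicates. The groups overlapped along their whole range, with a log2 change of -0.03 (95% interval -0.32 to 0.26, limma adjusted p = 0.893). Plk2, a polo-like kinase with roles in centriole duplication and stress responses, had -2.21, -2.18, -1.57 and -1.98 in wild type and -2.05, -1.79, -1.84 and -1.61 in VRK1-deficient replicates. Its log2 change was 0.16 (95% interval -0.22 to 0.54, limma adjusted p = 0.544), and its groups overlapped.

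Plk4, the kinase that starts the duplication of centrioles, has 3 probes, of which 1 (A_52_P59654) was not well above background on any array and was not tested. The sequences of the tested probes are shown because they carry different RefSeq records of Plk4 and gave different changes. Probe A_52_P635976 (NM_173169) lies on chromosome 3 from 40571784 to 40571843, and probe A_52_P668285 (NM_011495) from 40578627 to 40578766 (mm7).
Plk4 probe A_52_P635976: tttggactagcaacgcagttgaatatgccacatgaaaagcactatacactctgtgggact
Plk4 probe A_52_P668285: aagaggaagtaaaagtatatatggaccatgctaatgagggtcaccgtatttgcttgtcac
The brighter probe A_52_P635976 had a log2 signal of -1.35, -0.67, -0.34 and -0.43 in wild type and -1.59, -1.16, -1.19 and -1.65 in VRK1-deficient replicates. Wild type replicate 1 lay within the VRK1-deficient range and the other wild type arrays lay above it. The log2 change was -0.70 (95% interval -1.22 to -0.18, limma adjusted p = 0.0939) and did not pass the test, whereas without replicate 1 it was -0.92 (limma adjusted p = 0.00685). Within slide 1 it was -0.37, and within slide 2 -1.04.
The dimmer probe A_52_P668285 had -2.13, -1.30, -1.57 and -1.33 in wild type and -1.82, -1.70, -1.92 and -2.02 in VRK1-deficient replicates. Its log2 change was -0.28 (limma adjusted p = 0.345), or -0.46 without wild type replicate 1 (limma adjusted p = 0.0275). The brighter probe exceeded the dimmer one by 0.63 to 1.23 on the wild type arrays and by 0.22 to 0.73 on the VRK1-deficient arrays. These ranges overlapped and the difference between the probes was not tested.

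Of the checkpoint kinases, none was called with all arrays. Bub1, the kinase that phosphorylates histone H2A at kinetochores and recruits shugoshin, had a log2 signal of -0.01, 0.72, 1.43 and 1.20 in wild type and 0.12, 0.47, 0.57 and 0.15 in VRK1-deficient replicates. Wild type replicate 1 was below all VRK1-deficient arrays and the other wild type arrays were above them. Over all arrays the change was -0.51 (95% interval -1.16 to 0.14, limma adjusted p = 0.269), and -0.79 without replicate 1 (limma adjusted p = 0.0204). Slide 1 gave -0.06 and slide 2 gave -0.96.

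Ttk (MPS1), the kinase at the top of the checkpoint, had -3.51, -2.48, -2.32 and -2.33 in wild type and -3.26, -2.65, -3.03 and -3.20 in VRK1-deficient replicates. As for Bub1, only wild type replicate 1 was below the VRK1-deficient arrays. Its change was -0.38 (95% interval -0.99 to 0.23, limma adjusted p = 0.379), and -0.66 without replicate 1 (limma adjusted p = 0.0193). Bub1b, which encodes the checkpoint protein BUBR1, had 1.05, 1.58, 1.19 and 1.63 in wild type and 1.30, 1.49, 1.61 and 1.33 in VRK1-deficient replicates. Here the VRK1-deficient arrays lay inside the wild type range, and the log2 change was 0.07 (95% interval -0.29 to 0.43, limma adjusted p = 0.788).

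Without wild type replicate 1, thus, 5 of the 10 kinase genes were called, all as lower, namely Aurkc, Plk4, Bub1, Ttk and Gsg2. In that setting 28.9% of all tested genes were called, so a share of called genes has another background there. Aurka, Aurkb, Plk1, Plk2 and Bub1b were called neither with nor without this array. Without any 1 of the other 7 arrays, 0 of the 10 kinase genes were called by limma, when 0.00557% to 0.273% of all tested genes were. With all arrays, 3 kinase genes (Aurkc, Gsg2 and Plk4) had an unadjusted p under 0.05, as had 29.6% of all tested genes.

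Other genes of chromosome segregation and proliferation were taken as 7 lists with 67 genes, of which 66 were tested. The lists were Aurora partners, spindle checkpoint, kinetochore, sister chromatid release, centriole assembly, other mitotic kinases and proliferation. At a limma adjusted p under 0.05, 1 gene of these lists fell (Plk5) and 2 rose (Cdk1 and Ccna2). That is 4.55% of the 66, close to the 4.08% of all tested genes. These called genes were all in the lists of other mitotic kinases and of proliferation, and the other 5 lists had 0 calls among 43 tested genes. The median log2 change over the 66 genes was -0.13, with 43 below and 23 above 0. None of the 7 tested Aurora partners was called, among them Incenp and Birc5 of the passenger complex and Tpx2 of the spindle. Bora, the activator of Aurora A toward Plk1, had the lowest adjusted p of these (log2 change -0.57, limma adjusted p = 0.0723), and -0.72 without wild type replicate 1 (limma adjusted p = 0.00473).

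None of the 10 genes of the spindle checkpoint list was called. Mad2l1bp, which encodes the checkpoint silencing protein p31comet, had a log2 change of 0.37 (limma adjusted p = 0.0616), and 0.39 without wild type replicate 1 (limma adjusted p = 0.0207). It was also called with an intensity trend (limma adjusted p = 0.0381), with the probes of each gene averaged (limma adjusted p = 0.0479) and by the methods' t-test (adjusted p = 0.0421). It was not called with quantile normalization, normexp, slide as a block or replicate number as a block (limma adjusted p = 0.0547 to 0.0830). On the deposited values without scaling between arrays its change was 0.19 (limma adjusted p = 0.665). Its 4 VRK1-deficient arrays were all above its wild type arrays. None of the 15 kinetochore genes was called, and 12 of their log2 changes were below 0 with a median of -0.27. Cenpf, a protein of the outer kinetochore, had a log2 change of -0.68 (limma adjusted p = 0.112), and -0.89 without wild type replicate 1 (limma adjusted p = 0.0143). Its dimmer probe A_52_P227880 went the other way, with 0.73 (limma adjusted p = 0.0604), and the mean of both probes changed by 0.02 (limma adjusted p = 0.930), so Cenpf has no settled direction.

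None of the 6 genes of sister chromatid release was called. Espl1 (separase), the protease that cleaves cohesin, had a log2 change of -0.46 (limma adjusted p = 0.104), and -0.50 without wild type replicate 1 (limma adjusted p = 0.0574). None of the 5 tested genes of centriole assembly, in which Plk4 acts, was called either, and all 5 log2 changes were below 0. Ccp110, which caps centrioles, had -0.81 (limma adjusted p = 0.107), and -1.10 without wild type replicate 1 (limma adjusted p = 0.00535). Across these 5 lists, limma gave 16 of 43 tested genes (37.2%) an unadjusted p under 0.05, against 29.6% of all tested genes. These lists were put together because they held no call. Over all 7 lists it was 22 of 66 tested genes (33.3%).

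Among 15 other mitotic kinases, Plk5 fell and Cdk1 rose. Plk5, a polo-like family member whose kinase domain is incomplete, had a log2 signal of 0.29, 1.84, 2.10 and 1.84 in wild type and -0.996, 0.17, -0.19 and -0.54 in VRK1-deficient replicates. The groups did not overlap, though wild type replicate 1 was closer to the VRK1-deficient arrays than to the others of its group. This change of -1.90 had a standard error of 0.40 (limma adjusted p = 0.0475), with -1.48 within slide 1 and -2.33 within slide 2, and was -2.31 without wild type replicate 1 (limma adjusted p = 0.00322).

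Cdk1, the cyclin-dependent kinase of mitotic entry, had 1.83, 1.68, 1.55 and 1.63 in wild type and 2.13, 2.27, 2.14 and 2.07 in VRK1-deficient replicates. All its VRK1-deficient arrays were higher, by 0.48 on average (standard error 0.11, limma adjusted p = 0.0493), or 0.53 without wild type replicate 1 (limma adjusted p = 0.00874). Of 8 genes that mark proliferation, Ccna2 rose. Ccna2 encodes cyclin A2, a partner of Cdk1, and its log2 signal was 2.50, 2.32, 2.23 and 2.24 in wild type and 2.97, 2.92, 2.97 and 2.86 in VRK1-deficient replicates. The groups did not overlap, with a difference of 0.61 (SE 0.11, limma adjusted p = 0.0409), or 0.67 without wild type replicate 1 (limma adjusted p = 0.00403). Over the 8 genes the log2 changes ran from -0.46 (Ccnb1) to 0.61 (Ccna2), 3 below and 5 above 0, with a median of 0.03. Mki67, Top2a and Pcna, named after their values were seen, had log2 changes of 0.05, 0.00 and -0.05. Another tested probe of Top2a had -0.61 (limma adjusted p = 0.122). Another probe of Ccnb1 had 0.44 (limma adjusted p = 0.0705), with the other sign than its brightest. The dimmer probe of Anln (-0.61, limma adjusted p = 0.0493) was called though its brighter one was not (-0.22).

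The rises of Cdk1 and Ccna2 were smaller on the deposited values without scaling between arrays, 0.30 and 0.43, and neither was called there (limma adjusted p = 0.485 and 0.265). Cdk1 was not called with slide as a block (limma adjusted p = 0.0509), quantile normalization (limma adjusted p = 0.0519) or normexp (limma adjusted p = 0.0502) either. Leaving out the scaling moved the median of all tested probes by -0.18 on the log2 scale, from 0.04 to -0.14. The fall of Plk5 was -2.08 there (limma adjusted p = 0.0248), and that of Aurkc was -1.62 (limma adjusted p = 0.0240). Gsg2 was -0.77 and not called (limma adjusted p = 0.0761). Without each array other than wild type replicate 1, none of the 66 genes was called by limma, and without replicate 1, 22 were, of which 16 were lower. That is 33.3% of these genes, against 28.9% of all tested genes in that setting.

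**Figure D3:**
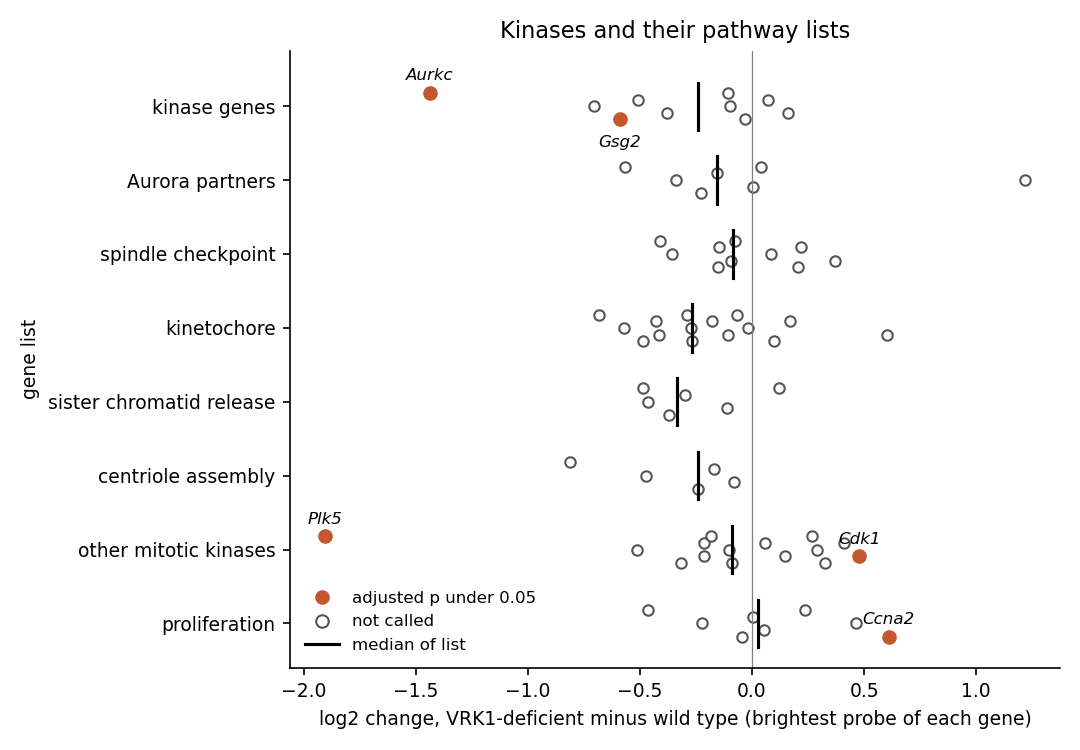
Log2 change between VRK1-deficient and wild type testes (horizontal axis) of the brightest probe of each gene, by list (vertical axis), with filled points for genes at an adjusted p under 0.05 and a bar at each list's median. The called genes are Aurkc, Gsg2 and Plk5 on the lower side and Cdk1 and Ccna2 on the higher side, and the kinase genes have a median of -0.24.

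Markers of germ cells were set beside the falls of Aurkc and Gsg2. Of 6 pan germ cell markers, 1 was called (Tdrd1, a tudor protein of the piRNA pathway, -1.11, limma adjusted p = 0.0499) and all 6 were below 0, with a median log2 change of -0.95. The dimmer Tdrd1 probe had -0.80 and was not called (limma adjusted p = 0.0987). Without wild type replicate 1 all 6 were called as lower (median -1.24), where 28.9% of all tested genes were called. Mael, another gene of that pathway, had -0.81 (limma adjusted p = 0.0820). The summed linear signal of this list, in units of the 75th percentile, was 20.3 to 47.1 on wild type and 14.2 to 21.7 on VRK1-deficient arrays. Of 4 tested markers of differentiating spermatogonia, Dmrtb1 fell (-1.81, limma adjusted p = 0.0493), and the summed signal was 21.5 to 69.7 in wild type and 11.3 to 25.9 in VRK1-deficient testes. The brightest of these, Stra8 and Sohlh2, had -1.48 and -0.52 and were not called. All 4 were called as lower without wild type replicate 1 (median -1.48). With all arrays, the dimmer Dmrtb1 probe had -1.69 and was not called (limma adjusted p = 0.0634).

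Of 6 markers of meiotic prophase none was called and all 6 were below 0 (median -1.04), with a summed signal of 4.94 to 10.8 in wild type and 3.31 to 5.36 in VRK1-deficient testes. Rec8 and Sycp1, its brightest genes, had -0.94 and -1.40. With wild type replicate 1 left out, 5 of the 6 were called as lower (median -1.39), where 28.9% of all tested genes were called. The markers listed here for undifferentiated spermatogonia lay on the other side. Of these, 1 of 5 tested was called (Bcl6b, 0.61, limma adjusted p = 0.0499), all 5 were above 0, and the summed signal was 1.38 to 2.35 in wild type and 2.19 to 2.38 in VRK1-deficient testes. Id4, the brightest of them, had 0.21 and was not called. Leaving out wild type replicate 1, 4 of the 5 were called as higher (median 0.56). The paper reports further markers of these cells as lower at this age. They are Lin28a and Lin28b on the arrays, and Plzf, Pou3f1, Pou5f1, Ret and Ngn3 by quantitative RT-PCR. None of them was among the 5 tested markers, so the list does not stand for all markers of these cells.

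Wild type replicate 1 was also low in germ cell markers. Its mean log2 signal over the 6 pan germ cell markers was 1.31, where wild type replicates 2 to 4 had 2.17 to 2.60 and the VRK1-deficient arrays 0.77 to 1.44. Over the 6 meiotic prophase markers it was -1.87, against -0.90 to -0.52 and -2.23 to -1.76. It was high in the 8 Sertoli cell markers, with 2.91, where the others of its group had 2.14 to 2.50 and the VRK1-deficient arrays 2.71 to 3.02. The part of the germ cell markers in the results on the kinases was not tested.

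Within an array, the change of Aurkc minus the change of the mean of a germ cell list was -0.49 for the pan germ cell markers, -0.27 for those of differentiating spermatogonia and -0.48 for those of meiotic prophase. Without wild type replicate 1 these were -0.48, -0.26 and -0.46. Among single markers, Dmrtb1 (-1.81), Stra8 (-1.48) and Sycp1 (-1.40) had changes near or beyond the -1.44 of Aurkc. For Gsg2 the same differences had the other sign, 0.36, 0.57 and 0.36, or 0.60, 0.83 and 0.63 without wild type replicate 1, so its change was smaller than the mean change of each of these lists. None of these differences was tested, because the genes were picked after their values were seen.

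**Figure D4:**
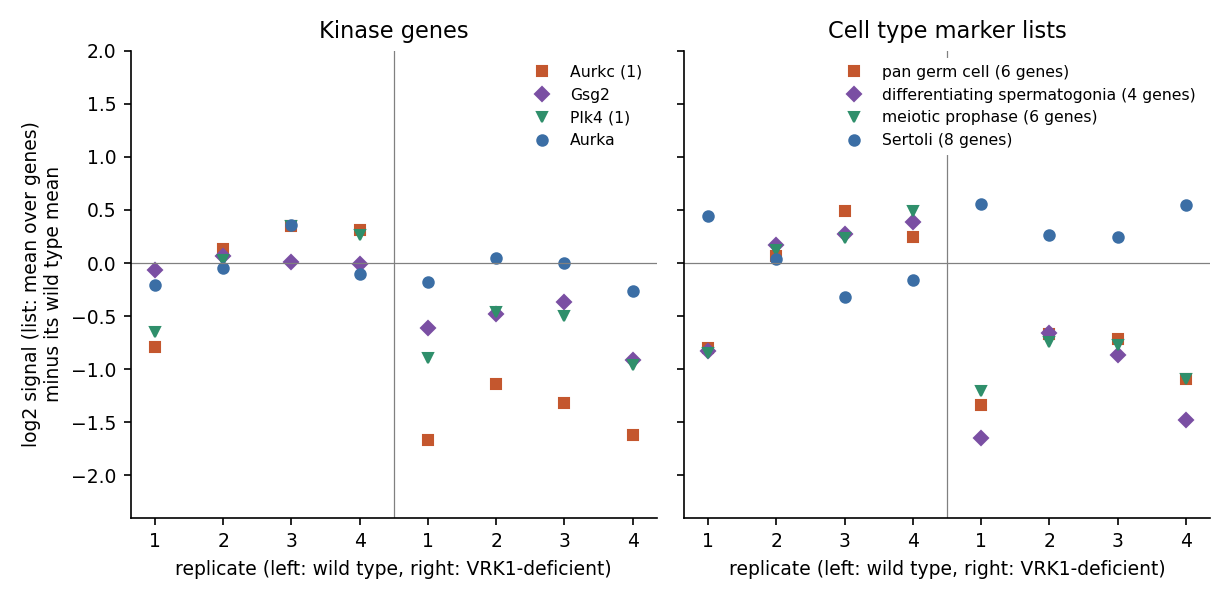
Log2 signal minus its wild type mean (vertical axis) on each array (horizontal axis, wild type replicates on the left and VRK1-deficient replicates on the right of each panel), for 4 kinase genes (left panel) and for the mean of 4 marker lists (right panel). Wild type replicate 1 lies low for Aurkc, Plk4 and the 3 germ cell lists and high for the Sertoli cell list, whereas Gsg2 and Aurka lie closer to their wild type means on that array.

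Markers of the somatic cells of the testis were read in the same way. Of 8 Sertoli cell markers none was called and 7 were above 0 (median 0.36), with a summed signal of 173.6 to 249.9 in wild type and 223.8 to 264.3 in VRK1-deficient testes. Clu and Dhh, the brightest, had 0.25 and 0.45. Rhox5, the 1 below 0, had -1.08 (limma adjusted p = 0.111). Without wild type replicate 1, which was high in the mean of these markers, 6 were called as higher and 1 (Rhox5) as lower (median 0.51). Of 6 Leydig cell markers none was called, and 2 were below and 4 above 0 (median 0.28). Their summed signal was 33.6 to 51.1 in wild type and 44.1 to 57.2 in VRK1-deficient testes. Hsd3b1 and Insl3, the brightest of them, had 0.37 and 0.35. Of 4 markers of peritubular myoid cells, Cnn1 fell (-0.99, limma adjusted p = 0.0445), while Acta2 and Myh11 had -0.06 and -0.08, and the summed signal was 122.2 to 135.3 and 106.3 to 133.8. None of 4 macrophage markers was called, with a summed signal of 3.58 to 4.66 in wild type and 4.20 to 4.72 in VRK1-deficient testes, and C1qa and Csf1r had 0.14 and 0.09. None of 4 endothelial markers was called, with a summed signal of 2.35 to 2.94 and 3.03 to 3.52, and Cdh5 and Kdr had 0.35 and 0.35. Without wild type replicate 1, limma called 2 Leydig cell markers and 1 endothelial marker as higher, 1 marker of peritubular myoid cells as lower and no macrophage marker. These were 33.3% of the Leydig, 25% of the endothelial and 25% of the myoid markers. Of all tested genes, 28.9% were called in that setting, so these shares are near the background. Every tested marker was well above background on all 8 arrays, so none of the cell types lacked its markers.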

How the data were processed

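Agilent Feature Extraction 9.5.3.1 was run by the authors, who deposited background-subtracted, linear processed signal intensities, not scaled between arrays. The deposited value table held the same intensities on each of the 8 arrays. The later steps used GeneSpring GX per the methods, which name no normalization. Here outlier spots (58 to 134 per array) were left out, intensities were taken to log2 minus log2 of the 75th percentile of each array, and spots of a probe were averaged. The 26958 of 41174 probes above background by the scanner's flag on 4 or more arrays were tested with limma 3.58.1 (lmFit and eBayes, R 4.3.3, data.table version 1.17.8), with Benjamini-Hochberg adjustment over all tested probes and a threshold of 0.05. A gene is represented by its probe with the highest mean signal. On simulated data built from these arrays, 82.5% of 200 probes changed by 1 to 2 on the log2 scale were recovered among 26951 probes, with 12 false calls. The simulated noise was drawn independently for each probe and array, so no array stood apart as wild type replicate 1 did. These figures thus do not give the recovery or false calls in the real data, nor the recovery of changes under 1.

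Kinase probes were taken by the gene name in the array files. Other genes were matched by symbol, synonym or accession in a RefSeq gene table, and probe positions (mm7) were not converted. The number of arrays limits the precision. Members and lists were chosen with earlier results of these data known. Named are all kinase genes, the called genes of each other list (or the one with the lowest adjusted p) and the 2 brightest genes of each marker list. Some further genes were named after their values were seen. Replicate numbers were not used to pair samples. Alternatives were quantile normalization, normexp background correction with an offset of 50, no scaling, no filter, the same filter on all 8 arrays, averaging the probes of each gene, slide or replicate number as a block, each slide alone, each array left out, an intensity trend with robust variances, and the methods' t-test. Differences between genes within an array were added after the data were seen and are given with no test. Tables and figures were made with Python 3.11.15, numpy 2.4.6, pandas 2.3.3, scipy 1.17.1 and matplotlib 3.10.9. Cep152, Zbtb16 and Sohlh1 were not analysed here.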

Additional observations from a re-analysis of the deposited data

Results flagged for a closer look

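In 42 groups of 4 arrays for the named kinase and pathway probes, 2 held an array far from the others by Dixon's test, where chance gives about 5%. Both were wild type replicate 1. Ttk had a log2 signal of -3.51 on that array while wild type replicates 2 to 4 had -2.48 to -2.32. Plk5 had 0.29 there against 1.84 to 2.10.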

How the results depend on the processing

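The kinase genes had 2 calls (Aurkc and Gsg2) with normexp, the filter on all 8 arrays, the intensity trend with robust variances and the mean of all probes. There was 1 (Aurkc) with quantile normalization, without scaling, with slide as a block and within slide 2, and there were 0 without the filter on dim probes, within slide 1 and with the adjusted methods' t-test, whose unadjusted form called 3. Leaving out 1 array gave 0 to 5 calls. Their median log2 change lay between -0.45 (within slide 2) and -0.03 (within slide 1). The pathway genes had 3 calls, against 1 without scaling, 0 without the filter and within slide 1, 5 with the intensity trend and with the mean of all probes, 15 with the unadjusted methods' t-test, and 0 to 22 with 1 array left out. The marker genes had 4 calls, against 11 with normexp, 7 with the filter on all 8 arrays, 10 with the intensity trend, 1 with slide as a block, 14 within slide 2, 0 within slide 1, without the filter and with the adjusted methods' t-test, 19 with its unadjusted form, and 0 to 30 with 1 array left out. Vrk1 fell in all settings, but not past the threshold within slide 1 (-3.67, adjusted p = 0.0622), where 3 of 26958 probes were called. The labels do not say whether same-numbered samples, which share a slide, were paired. Their deviations from the group means correlated at 0.53, 0.12, 0.21 and -0.19, which does not settle it. With replicate number as a block, the kinase genes had the same 2 calls (adjusted p = 0.0218 for Aurkc and 0.0447 for Gsg2), the pathway genes had 3 and the marker genes 16. In these 3, Plk5 and Ccna2 kept their calls, Cdk1 lost its call (adjusted p = 0.0560) and Cenpf gained one (adjusted p = 0.0350). The share of all tested genes called moved too, from 4.08% in the main fit. It was 3.27% with quantile normalization, 5.93% with normexp, 3.77% without scaling and 6.17% with the filter on all 8 arrays. The intensity trend gave 8.11%, the mean of all probes 5.87%, slide as a block 2.61% and replicate number as a block 8.95%. It was 0.039% without the filter, 0.0111% within slide 1 and 4.3% within slide 2. The methods' t-test called 0.936% adjusted and 27.8% unadjusted. The causes of these shifts were not tested. The highest counts with 1 array left out (5, 22 and 30) came without wild type replicate 1, and each of the other 7 arrays left out gave 0. The calls of the main fit rest on 4 arrays a group, and those within a slide or with 1 array left out rest on fewer.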
